A study of Mus musculus with 4 samples.

Results

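Mouse chromosome 11 held 1491 of the 23595 consensus peaks of open chromatin measured by ATAC-seq in sorted bone-marrow neutrophils. Its members were all rows of the peak table on that chromosome, and they lie nearest to the transcription start sites (TSS) of 881 genes. In ATAC-seq a transposase inserts sequencing adapters into accessible DNA, so the signal of a peak reports how open that site was. The comparison was between 2 libraries of Morrbid deficient neutrophils on a C57BL6 background (KO) and 2 libraries of C57BL6 neutrophils (WT), and none of the cells had been cultured. Morrbid, on chromosome 2, gives a long non-coding RNA, and the series title concerns its control of Bim, a pro-apoptotic protein, and of how long some myeloid cells live. The sources used here give neither ages nor the Morrbid allele. Per the labels, 50000 sorted cells per genotype went into duplicate transpositions, and no separate animals are named, so the spread between libraries may be technical. Chromosome 11 was selected on the KO and WT signal itself, since its median KO to WT difference was the lowest of all chromosomes. The KO to WT values on it are therefore a description. The calls and standard errors printed with them come from 1 fit over all peaks of the genome, show how single peaks stand against the spread between libraries, and are no test of the chromosome, its windows or its stretches.

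Accessible sites in mammalian cells are mostly promoters, which stay open in many cell types, and enhancers, which are more specific to a cell type. Open sites are not spread evenly. They concentrate in gene-rich, GC-rich chromatin and are sparse in gene-poor chromatin, and neighbouring sites can share a compartment or a domain. Neutrophils have a compact, lobed nucleus and a short life, and their chromatin carries the accessible promoters of granule, migration and cytokine receptor genes.

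The deposited values are a normalised signal in which all values of a library were whole multiples of 1 step. Taking 1 step as 1 read, the KO libraries held 6182922 and 7930547 reads in peaks and the WT libraries 3577922 and 3803711, so depth followed genotype. Both intronic Morrbid peaks (listed as Gm14005) stood at 166 and 154.5, and at 120.3 and 119.7, in WT replicates 1 and 2. In the KO libraries each of them was listed at 1 step, 0.883 and 0.693. Of 12 neutrophil markers 8 had a promoter peak, with a summed signal of 4398 and 4515 in KO and 4375 and 3909 in WT, while Elane and Ly6g had no peak. Of 7 monocyte and macrophage markers 1 had a promoter peak (94.5 and 72.1 in KO, 69.0 and 76.5 in WT). No eosinophil, B cell, T and NK cell or erythroid marker had a promoter peak. Peaks of any kind were assigned to 10 of the 12 neutrophil and 5 of the 7 monocyte and macrophage markers. They were also assigned to 4 of 6 eosinophil and 1 of 6 B cell markers. For T and NK cell markers it was 2 of 6, and for erythroid markers 1 of 5. Fewer open cells and less open chromatin per cell cannot be told apart in such bulk libraries. The KO to WT differences are log2 fold changes on the log2(signal + 1) scale from limma, and a peak is called lower or higher in KO where limma's adjusted p over all 23595 peaks was below 0.05.

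The 6 promoters printed here come from the stretch of the chromosome where the KO to WT difference was lowest. They show the sequence of the sites concerned. They are 300 bases each, from 250 before to 50 after the start, from RefSeq on GRCm38.p6, 5′ to 3′ along the gene's strand. Capitals mark a GC box (GGGCGG or its complement CCGCCC) and an ETS site (CCGGAAGT or ACTTCCGG). The first 4 are the promoters of that stretch called lower in KO with the lowest log2 fold change, and the last 2 are those nearest to no change. In order, they code for Rnf135, an E3 ubiquitin ligase of antiviral RNA sensing (chr11:80183619-80183918, plus strand), and Nsrp1, a nuclear speckle splicing protein listed as Ccdc55 (chr11:77078388-77078687, minus). Tmem199, an assembly factor of the vacuolar proton pump (chr11:78512119-78512418, minus), and Nxn, the thioredoxin-related nucleoredoxin (chr11:76399092-76399391, minus), follow. Phf12 is a PHD finger subunit of a Sin3 corepressor complex (chr11:77982566-77982865, plus) and Tmem97 is the sigma-2 receptor (chr11:78550686-78550985, minus).
Rnf135: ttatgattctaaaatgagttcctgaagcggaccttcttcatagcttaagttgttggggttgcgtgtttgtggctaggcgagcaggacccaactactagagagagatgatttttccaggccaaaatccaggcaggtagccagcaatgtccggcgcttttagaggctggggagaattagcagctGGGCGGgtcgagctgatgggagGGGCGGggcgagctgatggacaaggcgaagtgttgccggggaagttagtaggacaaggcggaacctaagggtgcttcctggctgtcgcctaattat
Nsrp1: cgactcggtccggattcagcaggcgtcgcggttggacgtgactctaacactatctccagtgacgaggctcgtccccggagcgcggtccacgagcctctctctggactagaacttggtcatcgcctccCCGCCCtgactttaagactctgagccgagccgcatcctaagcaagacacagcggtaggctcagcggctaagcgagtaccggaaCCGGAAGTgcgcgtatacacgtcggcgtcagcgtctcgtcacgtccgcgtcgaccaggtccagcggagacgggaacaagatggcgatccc
Tmem199: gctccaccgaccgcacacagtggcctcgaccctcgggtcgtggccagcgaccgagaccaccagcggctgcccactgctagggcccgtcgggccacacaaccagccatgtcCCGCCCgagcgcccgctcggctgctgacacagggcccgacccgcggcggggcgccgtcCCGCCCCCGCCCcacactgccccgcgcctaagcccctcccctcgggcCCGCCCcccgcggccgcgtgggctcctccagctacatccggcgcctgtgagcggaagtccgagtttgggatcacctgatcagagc
Nxn: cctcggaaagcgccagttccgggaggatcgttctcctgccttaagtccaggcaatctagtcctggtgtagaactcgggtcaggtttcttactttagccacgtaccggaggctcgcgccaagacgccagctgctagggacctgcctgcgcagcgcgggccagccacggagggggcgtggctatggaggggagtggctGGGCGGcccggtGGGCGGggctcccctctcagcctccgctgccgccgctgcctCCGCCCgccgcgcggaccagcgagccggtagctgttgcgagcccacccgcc
Phf12: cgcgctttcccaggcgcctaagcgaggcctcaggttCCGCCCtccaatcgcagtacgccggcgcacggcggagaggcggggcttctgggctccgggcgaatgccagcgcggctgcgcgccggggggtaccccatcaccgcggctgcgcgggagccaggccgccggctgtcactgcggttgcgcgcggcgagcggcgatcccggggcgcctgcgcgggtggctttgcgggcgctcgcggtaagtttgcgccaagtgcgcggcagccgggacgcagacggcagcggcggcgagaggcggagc
Tmem97: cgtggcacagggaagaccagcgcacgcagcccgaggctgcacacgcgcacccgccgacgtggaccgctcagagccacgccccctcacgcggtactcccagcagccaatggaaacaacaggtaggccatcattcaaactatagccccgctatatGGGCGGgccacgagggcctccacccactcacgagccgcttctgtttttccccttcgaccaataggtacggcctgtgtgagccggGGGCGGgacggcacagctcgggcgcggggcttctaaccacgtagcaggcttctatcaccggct

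These promoters varied in composition. GC content was 53.3% in Rnf135, 62.3% in Nsrp1, 75% in Tmem199 and 69.7% in Nxn, against 76.3% in Phf12 and 65% in Tmem97. All 6 held a GC box, with 4 matches in Tmem199, 3 in Nxn, 2 in Rnf135 and Tmem97 and 1 in Nsrp1 and Phf12, and Nsrp1 alone of the 6 held the ETS site. A GC box was present in 35.7% of all 32851 RefSeq promoter windows of this length, in 72% of the 7086 genes with a promoter peak and a sequence, and in 74.6% of the 590 such genes on chromosome 11. It was present in 83.1% of the 77 chromosome 11 promoters called lower and in 89.7% of the 29 in the stretch. The ETS site was present in 3.89% of all windows, 9.98% of genes with a promoter peak, 9.83% on chromosome 11, 13% of those called lower and 10.3% in the stretch. For the CCAAT box (CCAAT or ATTGG) the same 5 shares were 37.4%, 43.8%, 44.9%, 37.7% and 34.5%. The letters were searched on both strands, overlapping matches each counted, and a match is no measure of binding.

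Across chromosome 11 the KO signal was lower than the WT signal by a small amount at most peaks. The median log2 fold change was -0.13, with the middle range of peaks (lower to upper quartile) from -0.37 to 0.08, and 966 of 1491 peaks (64.8%) lay below 0, against 49.3% of peaks elsewhere. The median signal of a chromosome 11 peak was 128.9 and 127 in the KO libraries and 147 and 148 in the WT libraries. On the other chromosomes the medians were 120.1 and 121 in KO and 125 and 125 in WT. These medians of signal thus stood apart by genotype on chromosome 11 and, by less, elsewhere. Peak by peak, the other chromosomes had a median log2 fold change of 0.007. Their 4 pairings of a KO with a WT library gave medians from 0.007 to 0.011. Chromosome 11 peaks took 6.40% and 6.41% of all reads in peaks in the KO libraries and 6.98% and 6.92% in the WT libraries. On chromosome 11 the 4 pairings gave medians of -0.12, -0.13, -0.12 and -0.12. Between libraries of the same genotype the median was -0.01 in both.

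limma called 145 chromosome 11 peaks lower (9.73%, against 4.55% of all peaks) and 58 higher (3.89%, against 6.08% of all peaks) in KO, and left 1288 uncalled. On the other chromosomes the share called lower ran from 1.72% to 9.66%, the highest on the X chromosome, and the medians ran from -0.05 to 0.11. Both KO libraries lay below both WT libraries at 601 peaks (40.3%, against 27.3% of all peaks) and above both at 267 (17.9%, against 28%). The changes were shallow, since 19 peaks were at least 2-fold lower and 3 at least 2-fold higher. The number of calls rested on the libraries used. Without KO replicate 1 there were 31 lower and 10 higher, without KO replicate 2 there were 35 and 4, without WT replicate 1 there were 249 and 104, and without WT replicate 2 there were 194 and 80. The median moved only between -0.14 and -0.12 over the same 4 fits, and 17 lower and 3 higher calls were made in every one of them. Scaling set the balance of the calls. Higher calls were 28.6% of all chromosome 11 calls with the signal as deposited, 45.5% with the median of each library set equal, 14.3% with equal totals and 17.9% after cyclic loess. With the libraries thinned to equal depth, the median was -0.13, with 157 lower and 55 higher.

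**Figure D1:**
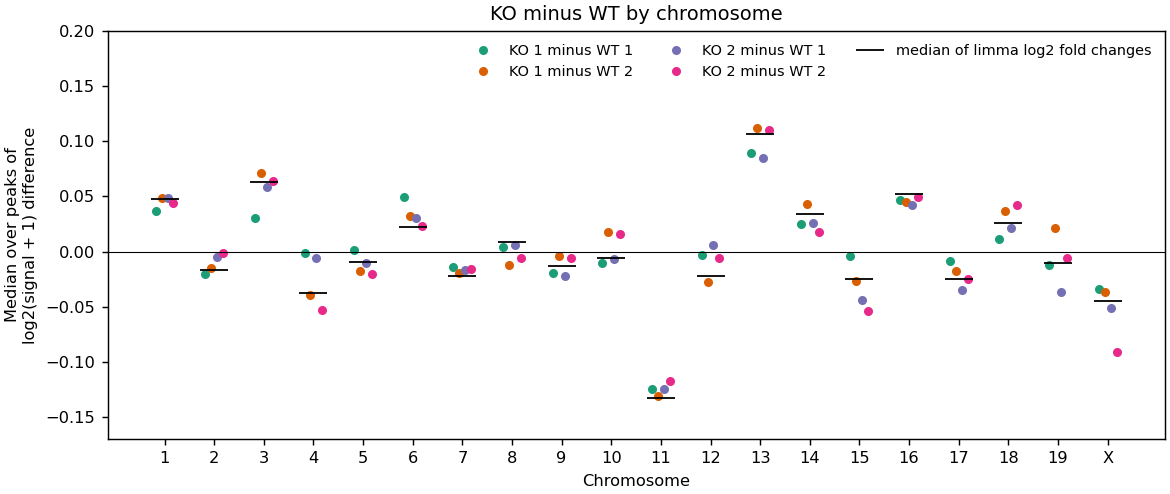
Median over the peaks of each chromosome (x axis) of the KO minus WT difference in log2(signal + 1) (y axis), with a point for each of the 4 pairs of a KO and a WT library and a bar for the median of the limma log2 fold changes. The 4 points of chromosome 11 lie together near -0.12 to -0.13, below those of every other chromosome, and those of chromosome 13 are the highest.

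Chromosome 11 was the most densely covered of the 20 chromosomes. It held 12.56 peaks per Mb between its first and last peak, ahead of chromosome 19 (12.3) and chromosome 10 (11.2), with the X chromosome last at 3.25. Its peaks sat at promoters more often than elsewhere, with 34.6% annotated as promoter-TSS against 23.8%. Intergenic peaks made up 23.8% against 31.9%, intronic peaks 29% against 32.6%, and peaks with a repeat as their detailed annotation 7.04% against 11.1%. The median WT signal was 148 on chromosome 11 and 125 elsewhere, and the median peak length was 577 and 570 bp. These properties do not use the KO to WT contrast.

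**Figure D2:**
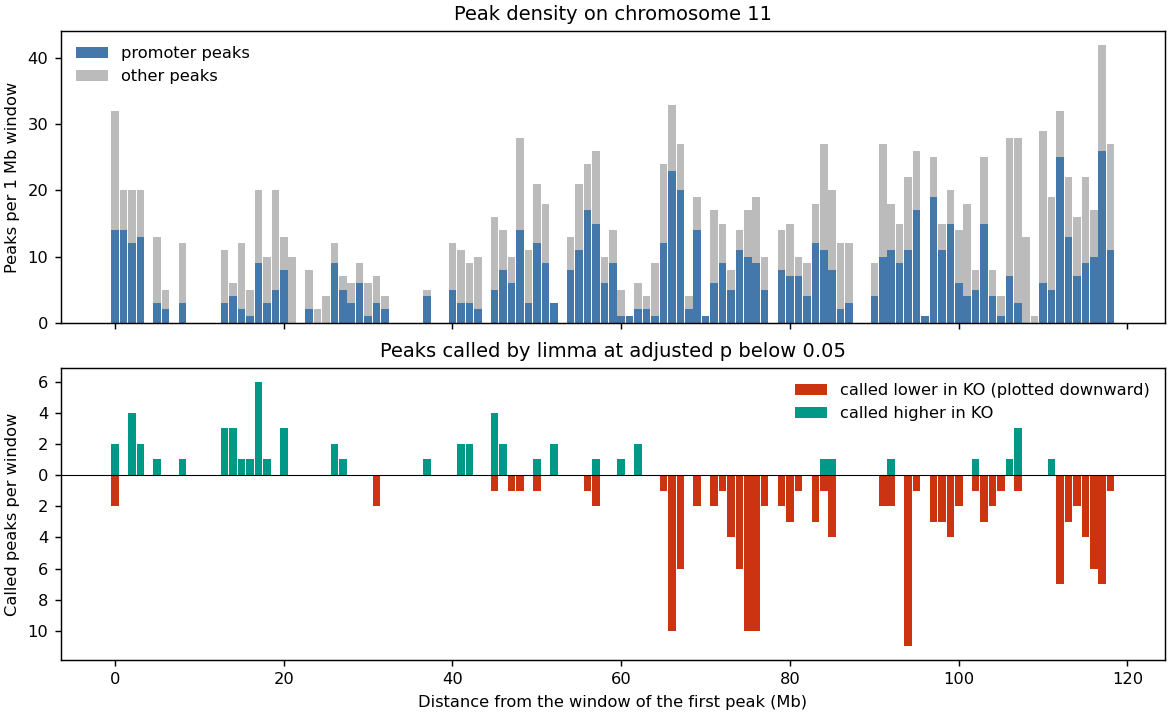
Peaks per 1 Mb window along chromosome 11, split into promoter and other peaks (upper panel), and peaks called lower or higher in KO per window (lower panel, lower calls plotted downward), against the distance from the window of the first peak in Mb. Higher calls stand mostly in the first 60 Mb and lower calls beyond it, where windows also hold more peaks.

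The direction of the difference changed along the chromosome. From the centromeric end to 20 Mb the median log2 fold change was 0.07, with 2 peaks lower and 18 higher of 156. From 20 to 40 Mb it was 0.11, with 2 lower and 13 higher of 138. From 40 to 60 Mb it was 0.01, with 5 lower and 14 higher of 226. Higher calls were thus 11.5%, 9.42% and 6.19% of the peaks in these bins, against 6.08% of all peaks of the genome. Lower calls were 1.28%, 1.45% and 2.21%, against 4.55%. Beyond 60 Mb the sign turned. The median was -0.22 from 60 to 80 Mb (54 lower and 4 higher of 273 peaks), -0.23 from 80 to 100 Mb (32 and 3 of 265), and -0.19 from 100 to 120 Mb (42 and 6 of 364). In the last stretch, beyond 120 Mb, it was -0.17, with 8 lower and 0 higher of 69 peaks. From 60 Mb on, lower calls were 19.8%, 12.1%, 11.5% and 11.6% of the peaks, and higher calls 1.47%, 1.13%, 1.65% and 0%. All 4 library pairings gave a positive median in the 0 to 20 and 20 to 40 Mb bins and a negative one in each bin from 60 Mb on. Promoter peaks were 45.5%, 40.6% and 50% of the peaks in the first 3 bins and between 45.3% and 58.2% in the rest.

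In 1 Mb windows, 101 held a peak and 90 held at least 5. A loss window was defined as a window with at least 5 peaks, a median log2 fold change of -0.25 or lower, and a negative median in all 4 library pairings. By this rule 23 windows of chromosome 11 were loss windows (25.6% of its windows, against 8.85% of the 1480 windows of the whole genome), and the rule was met by 108 of 1390 windows elsewhere, at most 16 on any other chromosome, chromosome 2. The mirrored rule gave 3 gain windows on chromosome 11, starting at 16, 17 and 21 Mb, against 123 elsewhere (8.51% of all windows). Just inside the threshold stood the windows at 100 Mb and 54 Mb (median -0.25 each) and 8 Mb (-0.27), and just outside stood those at 70 Mb (-0.23, with 6 peaks called lower), 103 Mb (-0.22) and 120 Mb (-0.21, with 7 called lower). With the median of each library set equal 13 loss windows were left. Leaving out a library gave 19 to 26.

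**Figure D3:**
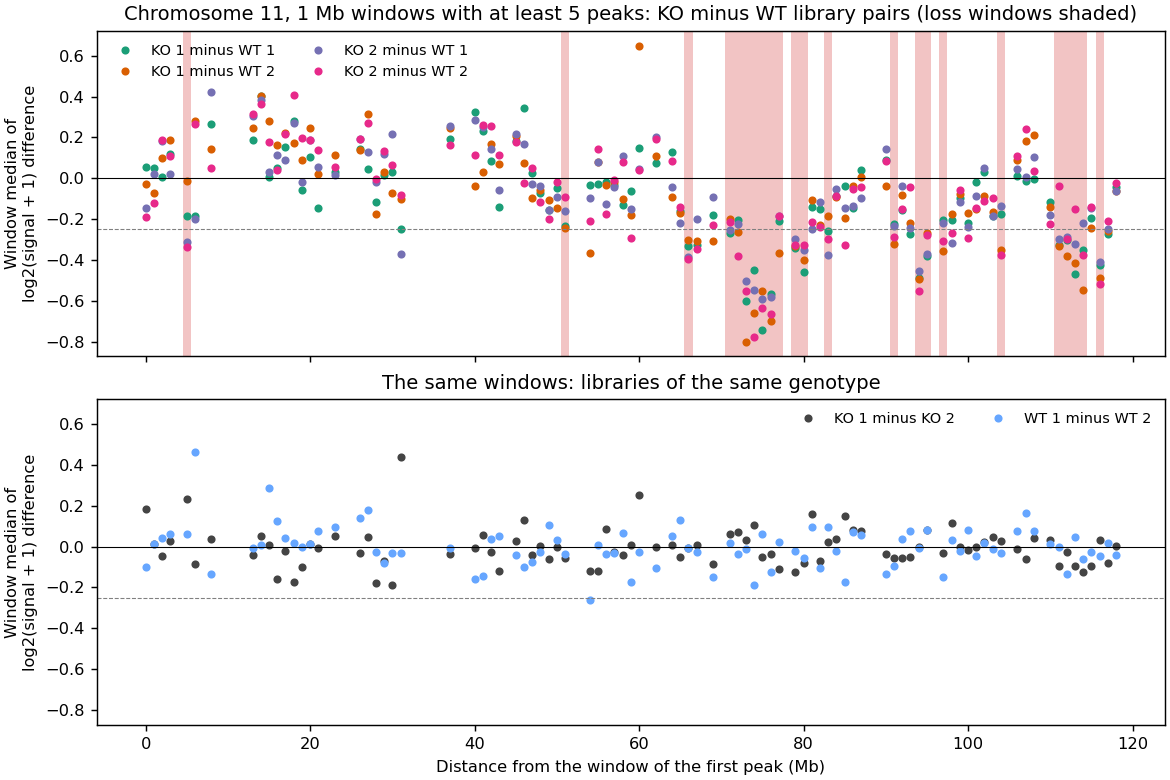
Window medians of the KO minus WT difference in log2(signal + 1) for the 90 windows with at least 5 peaks, 1 point per pair of a KO and a WT library (upper panel, loss windows shaded, dashed line at -0.25), and the same for libraries of the same genotype (lower panel), against distance from the window of the first peak in Mb. The KO to WT points drop to between -0.45 and -0.80 at a distance of 73 to 76 Mb, while the same-genotype points of those windows lie between -0.19 and 0.11.

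Between libraries of the same genotype, the window medians ran from -0.19 to 0.44 for the KO pair and from -0.26 to 0.46 for the WT pair. A median at least 0.25 away from 0 occurred in 2 windows for the KO pair and in 3 for the WT pair. Inside the loss windows these ranges were narrower, from -0.13 to 0.23 and from -0.19 to 0.10. Fewer windows enter these ranges, and the loss rule favours windows whose library pairings agree. The narrower ranges are therefore no measure of closer replicates there. The loss windows held 425 peaks, with 90 of the 145 peaks called lower (62.1%) and 2 of the 58 called higher. The remaining 1066 peaks had a median of -0.04, with 55 lower and 56 higher. The median signal in the loss windows was 108 and 114 in KO and 147 and 148 in WT. Outside them it was 142 and 135 in KO and 148 and 147 in WT, so the gap between genotypes was larger inside the loss windows, as their definition requires.

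Adjacent loss windows joined into 12 blocks, 8 of them a single window. The longest ran from 74 to 81 Mb and held 100 peaks, with a median of -0.52, 35 lower and 0 higher. The next longest ran from 114 to 118 Mb and held 89 peaks (median -0.34, 12 lower, 1 higher). The block from 97 to 99 Mb held 48 peaks (median -0.39, 12 lower) and that from 82 to 84 Mb held 29 (median -0.36, 5 lower). Among the single windows, that at 119 Mb had the lowest median (-0.48, with 6 of 17 peaks lower), and that at 69 Mb held the most peaks (33, median -0.37, 10 lower). The single windows at 94, 107, 86 and 100 Mb had medians of -0.31, -0.30, -0.29 and -0.25, with 2, 2, 3 and 3 peaks lower. The windows at 8 and 54 Mb held no peak called lower. Blocks differed in how open they were in WT, with a median WT signal from 96.6 in the window at 94 Mb to 236 in that at 107 Mb, and in density, from 8 to 33 peaks per Mb.

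Within the block from 74 to 81 Mb, 4 adjacent windows from 76 to 80 Mb each had a median of -0.5 or lower. This stretch was chosen after its values were seen. It held 58 peaks near 44 genes, and its median log2 fold change was -0.64. The median signal of its peaks was 73.3 and 72.4 in the KO libraries and 106 and 127 in the WT libraries. The 4 library pairings gave medians of -0.60, -0.65, -0.56 and -0.67, and the same-genotype pairs -0.02 and -0.03. Of the 58 peaks 52 lay below 0, both KO libraries were below both WT libraries at 50 and above both at 2, and limma called 30 lower and 0 higher. Without KO replicate 1 there were 7 lower, without KO replicate 2 there were 10, without WT replicate 1 there were 35 and without WT replicate 2 there were 29, while the median stayed between -0.67 and -0.58. The windows on either side were shallower, with medians of -0.27 from 74 to 76 Mb and -0.30 from 80 to 83 Mb. Windows as deep existed elsewhere, since 8 windows on other chromosomes had a median at or below the lowest of chromosome 11 (-0.68), down to -1.70.

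**Figure D4:**
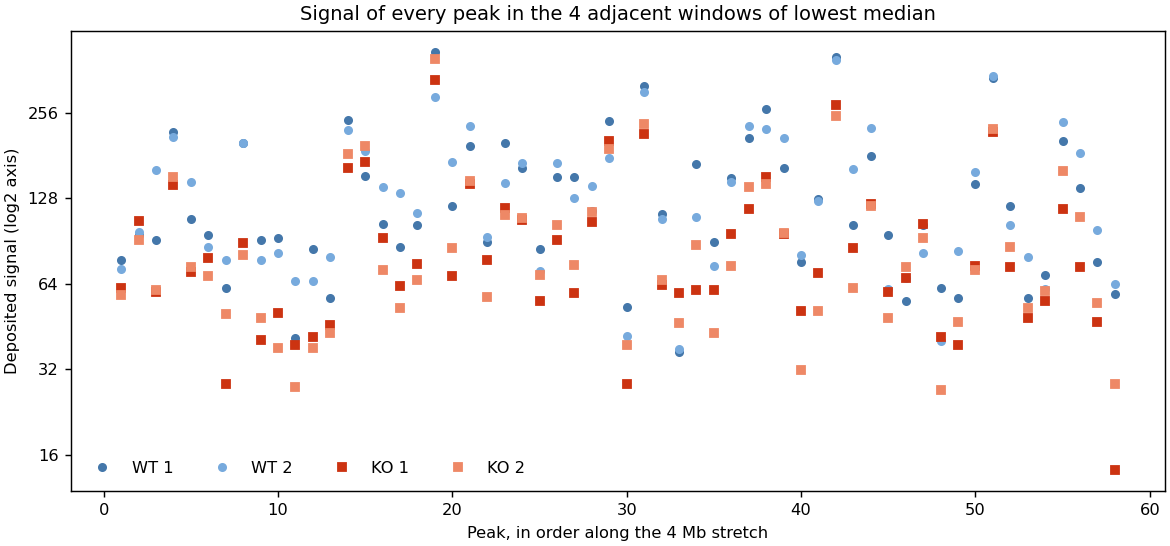
Deposited signal (log2 axis) of each of the 58 peaks from 76 to 80 Mb in order along the stretch, with circles for the 2 WT libraries and squares for the 2 KO libraries. The squares lie below the circles at 50 of the 58 peaks, at weak and strong sites alike.

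The difference in this stretch was shared by promoters and distal sites. The 35 promoter peaks had a median of -0.61, with 17 lower, and the 23 distal peaks -0.68, with 13 lower. By strength, the 23 weak peaks (mean signal under 85.4) had a median of -0.59, the 28 of middle strength -0.75 and the 7 strong ones (over 193) -0.47. A single peak of the stretch had a repeat as its annotation. Its 6 peaks with positive values were assigned to Rnmtl1 (0.04), Nufip2 (0.11), Phf12 (0.06), Nos2 (0.49), Evi2a-evi2b (0.20) and Rab11fip4 (0.10), none of them called.

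At the near end of the stretch the promoter of Nsrp1 (Ccdc55, chr11:76891490-76892167 in mm9) had a signal of 89.2 and 81.1 in KO and 201.1 and 200.4 in WT, a log2 fold change of -1.23 (SE 0.19). The libraries of each genotype lay close together and the groups did not overlap, and the call was made without any single library. The promoter of Nxn had 60.0 and 61.0 in KO and 91.0 and 161 in WT, so that WT replicate 2 stood far above WT replicate 1, and the call was lost without either KO library or WT replicate 2. The 2 alternative promoters of Ssh2, which codes for a cofilin phosphatase that remodels actin, had 40.6 and 48.5 in KO against 91.0 and 77.9 in WT at the upstream one, and 50.3 and 38.1 against 92.5 and 82.1 at the other. The Ssh2 promoters were lower in both KO libraries than in either WT library, and their calls were lost without either KO library.

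Further along, the promoter of Tmem199 had 59.2 and 74.8 in KO and 153 and 128 in WT (log2 fold change -1.06, SE 0.22). The promoter of Traf4, an adaptor of the TNF receptor-associated factor family, had 68.0 and 85.9 in KO and 120.3 and 173 in WT (-0.91, SE 0.22). Both calls were lost without KO replicate 1. At Ksr1, the scaffold that holds the Raf, MEK and ERK kinases together, 3 intronic peaks were called lower. The last of these had 96.3 and 97.0 in KO and 164 and 209 in WT (-0.93, SE 0.19), and was called without any single library. An intronic peak of Lgals9, which codes for galectin-9, had 60.9 and 88.0 in KO and 169 and 109.95 in WT, and its call was lost without KO replicate 1 or WT replicate 1. By contrast the promoter of Phf12 had 336 and 398 in KO and 420 and 292 in WT, and that of Tmem97 had 204 and 191 against 239 and 178. At these 2 promoters the libraries of the genotypes overlapped, although both lie within the stretch.

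All 4 peaks assigned to Wsb1, a SOCS box protein of a ubiquitin ligase, were called lower. Its promoter-proximal peak in the 5′ UTR was strong, with 274 and 249 in KO and 405 and 395 in WT (-0.61), and the deepest distal one had 69.8 and 51.3 in KO and 128 and 125 in WT (-1.07). Next to it lies Nf1, which codes for the Ras GTPase-activating protein neurofibromin. The Nf1 promoter had 122 and 121 in KO and 181 and 227 in WT (-0.73). The promoter of Suz12, a core subunit of Polycomb repressive complex PRC2, had 117 and 160.0 in KO and 204 and 238 in WT (-0.68). The promoter of Crlf3, a cytokine receptor-like factor, had 73.3 and 110.2 in KO and 139 and 185 in WT (-0.83). In each of these the KO libraries lay below the WT libraries. Without KO replicate 1 the calls at Nf1, Suz12, Crlf3 and 1 of the Wsb1 peaks were lost, and without KO replicate 2 those at Nf1 and at all 4 Wsb1 peaks. Without WT replicate 2 the call at another Wsb1 peak was lost.

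The Rnf135 promoter closed the stretch (chr11:79997315-79997592 in mm9) and was weak in KO, with 14.1 and 28.4 against 58.7 and 64.0 in WT (-1.56, SE 0.36). KO replicate 1 stood at less than KO replicate 2, and without KO replicate 1 the peak was not called. Of the 12 genes listed around Nf1, 6 had a promoter peak and 4 of them were called lower (Nf1, Suz12, Crlf3 and Rnf135), with a median of -0.75 over the 6. Over all genes of the genome with a promoter peak 5.83% were called lower and the median was -0.02, and on chromosome 11 it was 89 of 702 with a median of -0.15. The list lies largely in the stretch chosen for its low values, so nothing is read from its count. Adap2, an Arf GTPase-activating protein, had 46.8 and 54.7 in KO and 76.3 and 98.8 in WT without a call, and Utp6, a ribosome assembly factor, had 55.6 and 60.3 against 69.0 and 61.2. An intronic peak in the Rab11fip4 region, assigned to Rab11fip4os2, had 74.2 and 71.4 in KO and 144 and 159 in WT (-1.04, SE 0.21), called without any single library. A strong intergenic peak at -7469 bp from the TSS of Mir193a, a microRNA gene, had 220 and 225 in KO and 340.5 and 347 in WT (-0.62), lost without either KO library.

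The window at 69 Mb, which is dense in genes, held 23 promoter peaks, 9 of them called lower. The Dvl2 promoter, of a Dishevelled protein of Wnt signalling, had 123 and 143 in KO and 208 and 249 in WT (-0.78). At Acap1, an Arf GTPase-activating protein of endosome recycling, the peak 270 bp inside the gene had 75.1 and 97.7 in KO and 198 and 142 in WT (-0.96). Both were lower in either KO library than in either WT library, and both calls were lost without KO replicate 1. At 75 Mb the promoter of Slc43a2, an amino acid transporter, had 180.1 and 183 in KO and 295 and 327 in WT (-0.77, SE 0.15) and was called without any single library. The strong promoter of Pafah1b1, which codes for the dynein regulator Lis1, lay 1 window away with 881 and 839 in KO and 1018 and 955 in WT (-0.20), without a call.

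From 82 to 87 Mb, the peaks named here include sites assigned to a chemokine, a Schlafen and a microRNA gene. The intergenic peak 8997 bp from Ccl3, a chemokine gene, had 185 and 220.3 in KO and 255 and 337 in WT (-0.53), and that assigned to Slfn2, a Schlafen gene needed for quiescence of T cells and monocytes, had 117 and 127 against 170 and 216 (-0.65). Both calls were lost without either KO library or WT replicate 2. The peak 5043 bp from Mir21a, the gene of the microRNA miR-21, had 69.8 and 83.1 in KO and 164 and 134 in WT (-0.95, SE 0.21), lost without KO replicate 1. The promoter of Vmp1, an autophagy gene next to Mir21a, had 98.0 and 94.9 in KO and 161 and 143 in WT (-0.65), and its call was lost without either KO library or WT replicate 1.

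In the block from 97 to 99 Mb, 11 of 22 peaks of its first window were called lower and 1 of 26 of its second. An intronic peak of Pip4k2b, a phosphoinositide kinase, had 58.3 and 42.3 in KO and 110.1 and 102 in WT (-1.08), and its call was lost without KO replicate 2. The promoter of Rpl23, a ribosomal protein that also binds Mdm2, had 96.3 and 137 in KO and 172 and 253 in WT (-0.85). The promoter of Npepps, an aminopeptidase, had 71.5 and 93.5 in KO and 126 and 171 in WT (-0.84). Without KO replicate 1 neither promoter was called, and without WT replicate 2 the Npepps promoter was not. The second window holds the promoter of Med1, a Mediator subunit (176 and 151 in KO, 266 and 181 in WT), and that of Rara, the retinoic acid receptor alpha gene of myeloid differentiation (143 and 94.2 in KO, 185 and 136 in WT), neither called. At Rara the libraries of the genotypes overlapped.

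At 100 Mb the Stat5 genes stood side by side. They code for transcription factors activated by cytokine receptors such as that for GM-CSF. The Stat5a promoter had 110.4 and 113 in KO and 163 and 182 in WT (-0.62, SE 0.18), and the Stat5b promoter 142 and 143 in KO and 181 and 248 in WT (-0.56, SE 0.18). Both calls were lost without either KO library or WT replicate 2. The promoter of Stat3, the neighbouring gene that acts downstream of the G-CSF receptor, had 1325 and 1368 in KO and 1366 and 1253 in WT (0.04). Of these 3 neighbours the stronger Stat3 promoter overlapped between genotypes and the Stat5 promoters did not.

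In the blocks toward the distal end, the named peaks lay at genes of unlike roles. In the intron of Galk1, which codes for galactokinase, a peak had 32.7 and 33.3 in KO and 76.3 and 79.3 in WT (-1.21, SE 0.29). The promoter of Tsen54, a subunit of the tRNA splicing endonuclease, had 60.0 and 55.4 in KO and 98.3 and 136 in WT (-0.99). The promoter of Rhbdf2, which codes for iRhom2, a partner of the protease that releases TNF, had 91.8 and 149 in KO and 176 and 188 in WT (-0.63). The Galk1 and Tsen54 calls were lost without either KO library and the Rhbdf2 call without KO replicate 1. In the window at 119 Mb the promoter of Baiap2, which codes for the actin-bundling adaptor IRSp53, had 429 and 475 in KO and 675 and 681 in WT (-0.58, SE 0.10) and was called without any single library. In the same window the promoter of Gaa, the lysosomal acid alpha-glucosidase, had 202 and 206 in KO and 272 and 298 in WT (-0.48), a call lost without either KO library or WT replicate 2. The Sgsh promoter, of the lysosomal sulfamidase, had 135 and 132 against 176 and 210.2 (-0.52) with no call.

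Of the 12 called lower with the lowest log2 fold changes and groups that did not overlap, 8 lay outside the loss blocks and 8 at repeats. At 88 Mb, 3 adjacent intergenic peaks assigned to Gm15698 and 2210409E12Rik, at chr11:88829141, 88829483 and 88831315 (mm9 starts), had log2 fold changes of -2.05, -1.98 and -1.45. The first had 33.6 and 38.8 in KO and 106 and 219.9 in WT, and the second, at an ERVK long terminal repeat, had 41.5 and 27.0 against 149.7 and 122. The third, at another ERVK repeat, had 110.4 and 92.1 in KO and 257 and 299 in WT. Near the first mapped position of the chromosome, the peak at a MaLR repeat at -1703 bp from Pisd-ps1 had 139.5 and 117 in KO and 357 and 363 in WT (-1.49). That at a SINE at -2378 bp from Eif4enif1 had 71.5 and 58.9 against 195 and 242 (-1.73). The simple repeat assigned to P4ha2, a prolyl hydroxylase gene, was by far the strongest of this group, at 438 and 396 in KO and 1682 and 1634 in WT. All of these calls were made without any single library.

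Other sites of this kind showed a spread within KO. The 2 peaks at ERV repeats in an intron of Dock2, the Rac activator of leukocyte migration, had 169 and 90.8, and 332 and 160.0, in KO replicates 1 and 2, so that KO replicate 1 stood above KO replicate 2 in both. In WT they had 274 and 305, and 555 and 576. The satellite repeat at -9790 bp from Nol11, in the loss window at 107 Mb, had 83.0 and 67.9 in KO and 219 and 244 in WT (-1.61). Satellite peaks elsewhere were lower too, with 7 of 8 called lower and a median of -1.47. Multi-copy sequence can be counted differently under other mapping filters, and its part in these values was not tested. Leaving out the repeat peaks left 137 lower calls on the chromosome and the same number of loss windows (23). Of 105 repeat peaks on the chromosome 8 were called lower and 5 higher, with a median of -0.10, against -0.13 over all peaks of the chromosome.

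Among promoters outside the blocks, that of Prkca, which codes for protein kinase C alpha, had 77.7 and 81.8 in KO and 182 and 189 in WT (-1.21, SE 0.19) and was called without any single library. The promoter of Cyth1, a cytohesin that activates Arf GTPases and integrin adhesion, had 73.3 and 77.6 in KO and 151 and 149 in WT (-0.98, SE 0.21), and its call was lost without KO replicate 1. At both the libraries of each genotype lay close together. Over the chromosome, 702 genes had a promoter peak, of which 89 were called lower and 30 higher, with a median of -0.15. Over the genome the medians and shares were -0.02, 5.83% lower and 7.68% higher of 8777 genes.

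The higher calls lay mostly before 60 Mb, with 18, 13 and 14 of the 58 in the first 3 bins. In the third of these bins their share (6.19%) was near that over all peaks of the genome (6.08%). The promoter of Ahsa2, an activator of the chaperone Hsp90, had 657 and 651 in KO and 446 and 443 in WT (log2 fold change 0.56, SE 0.10), and was called without any single library. The promoter of Slc1a4, a neutral amino acid transporter, had 493 and 531 in KO and 346 and 348 in WT (0.56), and that of Ppp3r1, the regulatory subunit of calcineurin, had 856 and 824 against 594 and 617 (0.47). The first of these calls was lost without KO replicate 2 and the second without KO replicate 1. The promoter of Ykt6, a SNARE protein of membrane fusion, had 336 and 342 in KO and 242 and 229.6 in WT (0.52), lost without either KO library. At the promoter of Smtn, the smooth muscle protein smoothelin, WT replicate 1 (211) lay close to the KO libraries (239 and 274) and WT replicate 2 was low (119.7), and the call was lost in 3 of the 4 fits that left out a library.

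The largest gains by fold were at sites of weak or middle strength. The upstream promoter peak of Ifi47, an interferon-inducible GTPase, had 58.3 and 27.0 in KO and 13.2 and 18.1 in WT (1.31, SE 0.42), and KO replicate 1 stood well above KO replicate 2. The Ifi47 peak nearer to its start had 38.9 and 38.1 in KO and 48.4 and 48.7 in WT (-0.33). An intronic LINE peak of Clint1, a clathrin adaptor gene, had 104 and 106 in KO and 38.2 and 57.1 in WT (1.15). The peak at an ERVK repeat assigned to 4933406G16Rik had 149 and 182 in KO and 106 and 58.5 in WT (1.06). A peak at -114281 bp from Egfr, the epidermal growth factor receptor gene, had 84.8 and 96.3 against 44.0 and 50.1 (0.93). A peak near Dbnl, which codes for an actin-binding adaptor, had 236 and 243 in KO and 148 and 124 in WT (0.82). The Ifi47, Clint1 and Egfr calls were lost without either KO library, and the 4933406G16Rik and Dbnl calls were lost without KO replicate 2. The 2 higher calls inside loss windows were intergenic, at -162299 bp from Tns3 (435 and 424 in KO, 315 in both WT libraries) and near Cd300lb, an activating myeloid receptor gene (135 and 142 in KO, 82.2 and 97.4 in WT). Both were lost without either KO library, and the Cd300lb call also without WT replicate 1.

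Taking the promoter peak nearest to the TSS of each gene, none was called in the immune gene clusters of the chromosome. Over all 8777 genes of the genome with a promoter peak 5.83% were called lower and 7.68% higher, so an absence of calls among so few promoters sets the clusters apart from nothing. Of 9 interferon-inducible GTPases 4 had a promoter peak, and none of these nearest peaks was called. They ran from Igtp (60.9 and 49.9 in KO, 89.5 and 89.1 in WT) to Irgm2 (93.6 and 100.5 against 91.0 and 83.5). Of all 12 peaks assigned to these GTPases 2 were called higher, among them the upstream Ifi47 promoter peak, and 0 lower. Over all peaks of the genome 6.08% were called higher and 4.55% lower. Of 9 Schlafen genes 4 had one and none was called, with a median of -0.19. None of 11 CC chemokine genes had a promoter peak, although 3 peaks were assigned to them. Of 8 CD300 receptors 2 had one, Cd300ld (42.4 and 52.0 in KO, 85.1 and 75.2 in WT) and Cd300lf (130 and 125 in KO, 153 and 174 in WT), neither called. In the cytokine cluster at 53 Mb 5 of 12 genes had one and none was called, and Irf1, the interferon regulatory factor, had 556 and 558 in KO and 561 and 516 in WT. The peroxidase genes Mpo, Epx and Lpo had no peak in the table.

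Further lists held regulators and effectors of myeloid cells. Of 8 cytokine signalling genes 7 had a promoter peak, with Stat5a and Stat5b lower and none higher, beside 5.83% lower and 7.68% higher over all genes with a promoter peak. Among the uncalled, Socs3, the feedback inhibitor of cytokine receptors, had 155 and 175 in KO and 199.6 and 284 in WT, and Osm, the gene for oncostatin M, had 1210 and 1233 against 1168 and 1022. None of 7 promoters of 10 listed transcription factors was called, and Rel, an NF-kappa-B subunit, had 1060 and 1046 in KO and 881 and 919 in WT. Of 22 myeloid function genes 12 had a promoter peak and 1 was called lower, Timp2, an inhibitor of metalloproteinases (224 and 183 in KO, 279 and 308 in WT), lost without either KO library. The inflammasome sensor gene Nlrp3 had 245 and 234 in KO and 310 and 295 in WT, with no call. No promoter of the alpha globin neighbourhood (3 with a peak) or of the mitotic and repair genes (7 with a peak) was called. Taking the nearest promoter peak of each gene, every called promoter of the lists lies beyond 79 Mb. The list around Nf1 was placed there by its definition. The other lists gave only Stat5a, Stat5b and Timp2, so nothing is read from these positions.

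The lower values in the loss windows were found in every annotation class with at least 15 peaks there. The median was -0.34 at 182 promoter-TSS peaks, -0.39 at 128 intronic, -0.35 at 66 intergenic, -0.28 at 19 5′ UTR and -0.41 at 15 exonic peaks. Outside the loss windows the same classes lay between -0.10 and 0.00, and on the other chromosomes between -0.08 and 0.02. The difference also varied with the strength of a peak. In the loss windows the median was -0.44 at weak peaks, -0.44 at middle and -0.22 at strong ones, outside them -0.13, -0.09 and 0.03, and on other chromosomes -0.08, -0.05 and 0.10. Strong peaks thus had the highest median in all 3 sets of peaks. Strength was the mean of all 4 libraries, KO included, so a higher KO signal itself moves a peak toward the strong class. That the loss windows lay below the other sets in each class and at each strength follows in large part from their definition, a low median of these same values. The part of strength in the window medians was not tested. In the loss windows, promoters with low, middle and high GC content (under 57.7%, between, over 65.2%) had medians of -0.35, -0.33 and -0.34, with 14 of 55, 13 of 69 and 22 of 70 called lower. Outside the loss windows the medians were -0.03, -0.01 and -0.09, with 2 of 115, 9 of 150 and 17 of 131 called lower. Higher calls there numbered 5, 11 and 12, so calls in both directions were a larger share at high GC content. On the other chromosomes 94 of 2236, 108 of 2099 and 149 of 2161 were called lower, and 147, 163 and 210 higher. Over the whole of chromosome 11, 16 of 170, 22 of 219 and 39 of 201 were called lower, and 5, 11 and 12 higher. A promoter sequence was at hand for 84% of the chromosome 11 genes with a promoter peak and for 83.6% of those in the loss windows.

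**Figure D5:**
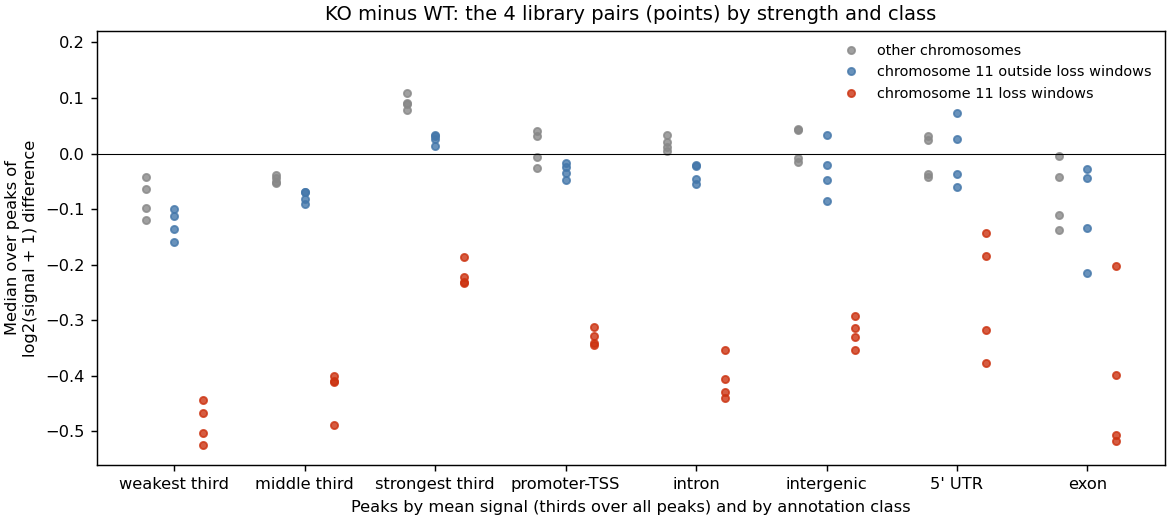
Median over peaks of the KO minus WT difference in log2(signal + 1) (y axis) by strength of the peak and by annotation class (x axis), with a point per pair of a KO and a WT library, for other chromosomes, chromosome 11 outside its loss windows and its loss windows. All 4 points of the loss windows, which were defined by low medians of these values, lie below those of the other sets at each strength and at promoter, intronic and intergenic peaks.

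Peak density went with the window medians in part. Over the 90 windows of chromosome 11, Pearson's correlation of the number of peaks with the median log2 fold change was -0.33 and Spearman's -0.38, and over the 1390 windows elsewhere they were -0.18 and -0.24. These are descriptions over windows that share the same 4 libraries and lie next to each other. By density, peaks in windows of 5 to 9 peaks had a median of 0.05 on chromosome 11 and 0.08 elsewhere, and those in windows of 10 to 14 had -0.03 and 0.03. In windows of 15 to 19 peaks the medians were -0.28 and 0.00, in windows of 20 to 24 they were -0.07 and -0.03, and in windows of at least 25 they were -0.18 and -0.03. The lowest value on chromosome 11 was thus at middle density, the class that holds 2 of the 4 windows from 76 to 80 Mb.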

How the data were processed

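ATAC-seq was done on 4 libraries, 2 per genotype, whose titles give group and replicate number. Per the submitters' processing notes, the tools were HOMER, DiffBind, BWA, MACS2 2.1.0, Trimmomatic 0.32, bcl2fastq 2.16.0 and R 3.1.1, and the build mm9, with no order or role. Handling of duplicates and of the transposase offset, mapping filters and the rule for consensus peaks: not given in the sources used here. The values that the authors deposited are a normalised signal per peak and library, with the nearest TSS, region class and repeats as HOMER-style columns, per the file headers. All values of a library were whole multiples of 1 step (0.883 and 0.693 in KO, 1.47 and 1.39 in WT), and 1 step was taken as 1 read for depth only. The median reads per chromosome 11 peak were then 146 and 183 in KO and 100 and 106 in WT. No count model was used. Listed widths exceed end minus start by 2, and coordinates are printed as deposited, in mm9.

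From these values, limma 3.58.1 in R 4.3.3 (empirical Bayes with a mean-variance trend, two-sided, genotype as the only term, Benjamini-Hochberg over all 23595 peaks) was fitted on log2(signal + 1), with no filter. The pseudocount of 1 understates the change of weak peaks. A call needed an adjusted p below 0.05. Windows of 1 Mb were assigned by peak midpoint from position 0. Promoter peaks were annotated as promoter-TSS or lay within 1000 bp of a TSS, 1 per gene, the nearest, for counts of genes. Strength classes are equal parts of all peaks by mean signal over the KO and WT libraries together. Promoter sequences were matched by RefSeq gene to GRCm38.p6 entries, for genes with 1 entry only, and serve for sequence and names, not for position against the mm9 peaks. No peak sequence was used here.

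The chromosome, the gene lists, the window rule and the rule for named peaks were chosen with earlier results of these data known. The rule took called and promoter peaks of largest change in each loss window (up to 6), the 12 lower and 8 higher called peaks and 8 called promoters per direction of largest change, up to 3 promoter peaks of each list and the Morrbid peaks. Peaks of the stretch from 76 to 80 Mb, and list members beyond the first 3, were named after their values were seen. The fit was tested on simulated libraries. Alternatives were other pseudocounts, scalings, filters, variance models and windows, a replicate block, each library left out, and, chosen after seeing the data, libraries thinned to equal depth. Figures were drawn with matplotlib 3.10.9.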

Additional observations from a re-analysis of the deposited data

How the results depend on the processing

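The chromosome 11 median log2 fold change of -0.13 stayed below 0 under every alternative run, at -0.066 with the median of each library set equal, -0.19 with equal totals, -0.11 without promoter peaks, -0.044 without the loss windows, -0.126 with libraries thinned to equal depth, and from -0.14 to -0.12 with a library left out. Median centring moved the median of all peaks from -0.002 to 0.065 and total scaling to -0.056. The 145 lower calls became 1 without limma's mean-variance trend (303 at an unadjusted p under 0.05), 55 without promoter peaks, and 31 to 249 with a library left out. The 58 higher calls became 29 after cyclic loess, 91 with median centring, 28 with equal totals, 0 without the trend (75 at an unadjusted p under 0.05 in limma), 25 without promoter peaks, and 4 to 104 with a library left out. Fewer peaks or libraries entered the counts in the last cases, and the cause of the others was not tested. The 23 loss windows became 13 with median centring, 37 in 0.5 Mb windows, 11 in 2 Mb windows, 6 at a threshold of -0.4, and 19 to 26 with a library left out. In the stretch from 76 to 80 Mb the 30 lower calls became 0 without the trend and 20 after cyclic loess, and its median ran from -0.69 to -0.57 over all settings. A replicate block gave 170 lower and 69 higher calls, with 23 loss windows. The labels tie replicate numbers to nothing shared. The deviations of KO replicate 1 and WT replicate 1 from their group means correlated at -0.04. With 2 libraries per genotype this value does not tell whether same-numbered libraries shared a preparation. Of the 98 named peaks with a call, 18 were called with every library left out in turn. With 2 libraries per genotype, the lone library left in such a fit is assumed to vary like the others.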

Other observations

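Peaks near 3′ ends and other small classes of chromosome 11 followed the larger ones. Of 16 peaks in a 3′ UTR 1 was called lower and 0 higher, with a median log2 fold change of -0.13. On other chromosomes such peaks had a median of 0.03, with 2.63% lower and 5.26% higher. The 22 peaks near a transcription end had a median of -0.17, with 2 lower and 1 higher. Elsewhere that class had a median of -0.09, with 4.81% lower and 6.73% higher. The 120 peaks at CpG islands outside annotated promoters had a median of -0.19 (17 lower, 3 higher), and 13 of these lower calls lay among the 38 such peaks of the loss windows. Peaks at tRNA genes, which RNA polymerase III transcribes, stood apart from them in value, with a median of 0.08 over 4 peaks and no call. On other chromosomes 10 tRNA peaks had a median of 0.27 and no call.

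Among the weaker repeat classes of the chromosome, 47 long terminal repeat peaks had a median of -0.13 with 5 lower and 3 higher, 20 LINE peaks had -0.07 with 0 lower and 2 higher, and 17 SINE peaks had -0.12 with 1 lower and 0 higher. Over all peaks of the genome 4.55% were called lower and 6.08% higher. All 5 lower calls at long terminal repeats lay outside the loss windows, as did 42 of the 47 such peaks.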
